A study of Mus musculus with 20 samples.

Results

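The comparison set the RNA of cHyper mTEClo against that of WT mTEClo, gene by gene. Medullary thymic epithelial cells (mTEC) are the stromal cells of the inner thymus, and mTEClo is the name the labels give to 1 of the 2 sorted mTEC populations of the series. The 2 groups hold 10 of the 20 deposited samples, which the authors had already combined into 6 of the 12 library columns of their count table, 3 of WT and 3 of cHyper. The control genotype is labelled Trp53-WT, wild type for the gene of the transcription factor p53. The other is labelled Trp53-cHyper, and the labels do not say how it was made, in which cells it acts, or whether the WT mice share any other allele. All mice were 4 to 5 weeks old, both groups were sorted alike from digested thymus after enrichment on Epcam, and 75000 cells went into each sample. Every gene measured was compared, so the members of the comparison are the 6 libraries, and the other mTEC population, mTEChi, entered in 2 ways: its 6 libraries shared the estimate of spread behind every test, and its own genotype difference was set against that of mTEClo.

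Trp53 is a transcription factor that is held down by the proteins of Mdm2 and Mdm4 and that, once active, raises genes of cell cycle arrest, cell death, DNA repair and metabolism. mTEC present proteins of other organs to developing T cells, which is part of how self-tolerance is set. Among them are Aire-positive cells and the so-called mimetic cells, which copy programmes of tuft, neuroendocrine, intestinal, ciliated and muscle cells. Thymic epithelium also shows interferon-stimulated genes without infection, and these genes are switched on by STAT proteins and interferon regulatory factors at a promoter sequence called the interferon-stimulated response element (ISRE).

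The mTEClo libraries held 22023800 to 47926607 fragments assigned to genes. Replicate 3 of each genotype was the shallower library (22023800 and 25306137 fragments, against at least 45592838), came from 1 run where the others combine 2, and was the library of its group with high Xist (1760 and 1432 CPM, against at most 8.36) and no Ddx3y fragment. Levels below are CPM, fragment counts scaled to library size with TMM, listed for replicates 1, 2 and 3 of WT and then of cHyper or as mean ± SD (n = 3), and a gene was called where edgeR's quasi-likelihood test gave a Benjamini-Hochberg adjusted p under 0.05. Whether each replicate was another animal is not stated, and the p-values speak only of the spread between these libraries. Transcripts that mark the sorted population were abundant in both genotypes. The basal keratin gene Krt5 stood at 4974, 5842 and 6906 CPM in WT and at 4830, 5486 and 5372 CPM in cHyper, and the mTEClo chemokine gene Ccl21a at 6236, 6913 and 8114 CPM in WT and at 6079, 6493 and 6190 CPM in cHyper, with adjusted p of 0.603 and 0.635. Of the cortical epithelial genes, Psmb11 stood at 11.8, 11.9 and 11.3 CPM in WT and at 16.8, 12.9 and 21.2 CPM in cHyper. Prss16 stood at 97.8, 86.5 and 73.6 CPM in WT and at 122, 86.5 and 134 CPM in cHyper, with overlap. The cortical list (12 genes) summed to 2601 to 3623 CPM in WT and to 3690 to 3902 in cHyper, without overlap. On it 9 members had a positive and 3 a negative log2 change (median 0.34). Summed over whole lists, markers of myeloid and dendritic cells (21 genes) ran from 134 to 174 CPM in WT and from 162 to 174 in cHyper, and those of B cells (7 genes) from 18.1 to 24.3 and from 21.2 to 28.6. Thymocyte markers (18 genes) ran from 41.7 to 62.5 CPM in WT and from 54.4 to 84.7 in cHyper, with overlap. Even so, 16 of them had a positive and 2 a negative log2 change (median 0.86), though none was called. Their sum was higher in cHyper for every replicate number, at 43.9, 62.5 and 41.7 CPM in WT. In cHyper it was 54.4, 74.9 and 84.7 CPM. Fibroblast markers (13 genes) ran from 311 to 401 and from 326 to 430 CPM, and endothelial markers (7 genes) from 21.1 to 25.2 and from 14.3 to 19.8. Erythroid genes (9 genes) ran from 13.1 to 21.0 CPM in WT and from 5.17 to 10.7 in cHyper, so that the last 2 sums did not overlap between the genotypes. No marker on these lists was at 0 in all 6 libraries, and the part of these other cells in the results was not tested. In bulk samples fewer cells of a type and less RNA per cell cannot be told apart.

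The genotypes differed widely, and in both directions to a like extent. Of 28932 genes tested, 2651 were called (9.16%), 1310 of them higher in cHyper (4.53%) and 1341 lower (4.64%). With replicate number as a block, 2031 were higher, and with only the mTEClo libraries in the fit 816 were. Most of these differences were modest. Among the 18353 genes that averaged 1 CPM or more in mTEClo, 1101 were higher by a median of 1.62-fold and 1182 were lower by a median of 1.76-fold, and 321 and 416 of them changed at least 2-fold. The 3 cHyper libraries lay above all 3 WT libraries for 12.2% of the 28001 genes with a fragment in mTEClo and below them for 13%. The median log2 fold change over those genes was 0.02.

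**Figure D1:**
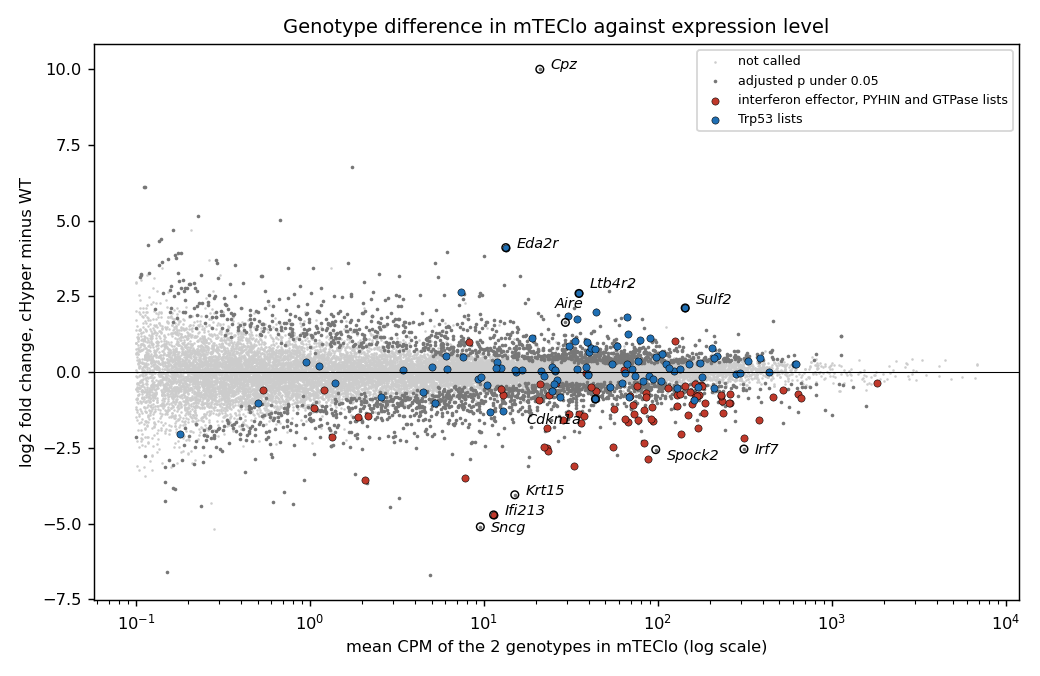
Log2 fold change between cHyper and WT (vertical axis) against mean CPM of both genotypes on a log scale (horizontal axis), 1 point per gene that averaged 0.1 CPM or more. Grey points are genes not called and dark points genes called by edgeR, red points are members of the interferon effector, PYHIN and GTPase lists, most of which lie below 0, and blue points are members of the Trp53 lists, which lie on both sides of it.

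Among called, non-overlapping genes averaging 1 CPM or more, predicted genes left out, the rises were led by genes that WT mTEClo hardly expressed. Cpz (ENSMUSG00000036596, mm10 chromosome 5, 35502218 to 35525698), which encodes a secreted carboxypeptidase that binds Wnt proteins, stood at 0, 0.0694 and 0.0469 CPM in WT and at 40.4, 42.9 and 42.4 CPM in cHyper. Its WT libraries together held 4 fragments and its cHyper libraries 4674, and its p was the smallest of the whole comparison (adjusted p = 5.8e-11). With so few WT fragments no fold is given. Palm3 stood at 1.84, 1.16 and 0.844 CPM in WT and at 22.1, 24 and 10.2 CPM in cHyper (log2 change 3.83, SE 0.34, adjusted p = 5.8e-06). The lowest cHyper library of Palm3, replicate 3, was still far above the WT libraries. Dusp2, a phosphatase that switches off MAP kinases, stood at 0.142, 0.278 and 0.375 CPM in WT and at 3.43, 3.36 and 2.32 CPM in cHyper (log2 change 3.61, SE 0.28, adjusted p = 1.9e-06). The X-linked gene Itm2a rose from 1.1 ± 0.118 to 9.79 ± 0.45 CPM and Rai2, also on the X, from 0.814 ± 0.366 to 9.68 ± 1.13 CPM (both n = 3, with adjusted p of 1.0e-07 and 7.0e-06). Pdyn, the precursor of dynorphin peptides, rose from 0.171 ± 0.070 to 1.93 ± 0.655 CPM (log2 change 3.44, SE 0.35, adjusted p = 1.9e-05), Gipc2 from 3.25 ± 0.563 to 29.2 ± 3.16 CPM (log2 change 3.18, SE 0.20, adjusted p = 2.2e-07) and Tmem132b from 0.476 ± 0.12 to 3.62 ± 0.612 CPM (log2 change 2.98, SE 0.26, adjusted p = 5.8e-06). None of these genes had a cHyper library within the range of WT.

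Among more abundant genes, those averaging 50 CPM or more, the rises were smaller. Rgs14, a regulator of G-protein signalling, stood at 18.9, 15.7 and 15.7 CPM in WT and at 130.2, 128 and 102 CPM in cHyper (log2 change 2.84, SE 0.13, adjusted p = 2.7e-08). Kcna2, a potassium channel gene, stood at 18.6, 12 and 12.2 CPM in WT and at 105, 87.1 and 80.8 CPM in cHyper (log2 change 2.67, SE 0.16, adjusted p = 2.2e-07). For both genes every cHyper library was far above the highest WT library. Vcan, the gene of the matrix proteoglycan versican, rose from 37.2 ± 2.95 to 125 ± 16.4 CPM (log2 change 1.74, SE 0.12, adjusted p = 4.6e-07). The carbonyl reductase gene Cbr2 rose from 218 ± 41.7 to 702 ± 153 CPM (log2 change 1.68, SE 0.19, adjusted p = 5.6e-05), and Il2ra, the alpha chain of the interleukin 2 receptor, from 103 ± 6.72 to 274 ± 64.4 CPM (log2 change 1.41, SE 0.16, adjusted p = 6.3e-05). On the authors' deposited TPM scale, which divides by gene length and so allows genes to be compared, mean levels in cHyper were 59.8 for Rgs14, 1114 for Cbr2, 101 for Il2ra, 16.1 for Kcna2 and 39.4 for Cpz, so that Cbr2 was the most abundant of these 5.

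Among called, non-overlapping genes averaging 1 CPM or more, predicted genes left out, the largest falls were in Sncg, Ifi213, Ms4a10, Ms4a4d and Krt15. This order is by fitted log2 change, and the interferon-inducible gene Ifi213 is described with its family. Sncg (ENSMUSG00000023064, mm10 chromosome 14, 34370274 to 34374789), the gene of gamma-synuclein, stood at 16.8, 24.6 and 14.2 CPM in WT and at 0.503, 0.552 and 0.57 CPM in cHyper (log2 change -5.11, SE 0.24, adjusted p = 2.7e-08). Krt15, a keratin of basal and progenitor-like epithelial cells, stood at 21.8, 31.8 and 31.5 CPM in WT and at 2.01, 0.989 and 2.24 CPM in cHyper (log2 change -4.05, SE 0.24, adjusted p = 1.8e-07). All 3 cHyper libraries were far below the lowest WT library for both genes. Ms4a10 and Ms4a4d, members of the Ms4a family of membrane proteins, both on chromosome 19, fell from 5.53 ± 0.556 to 0.271 ± 0.167 CPM and from 6.15 ± 1.13 to 0.328 ± 0.11 CPM (adjusted p of 1.9e-06 and 1.8e-05). C1ql2, a secreted C1q-like protein, fell from 3.98 ± 0.58 to 0.299 ± 0.137 CPM (log2 change -3.65, SE 0.29, adjusted p = 2.0e-06), and Matn1, a cartilage matrix protein, from 32.2 ± 8.91 to 3.75 ± 0.583 CPM (log2 change -3.11, SE 0.20, adjusted p = 3.4e-07). Among abundant genes, Spock2, a secreted proteoglycan, stood at 200.3, 149.8 and 149 CPM in WT and at 28.8, 27 and 28.9 CPM in cHyper (log2 change -2.56, SE 0.12, adjusted p = 2.7e-08). Anxa8, an annexin, stood at 103, 106 and 94.3 CPM in WT and at 13, 17 and 14.9 CPM in cHyper (log2 change -2.75, SE 0.16, adjusted p = 1.2e-07). Shisa4 fell from 135 ± 5.02 to 27.7 ± 1.9 CPM (log2 change -2.28, SE 0.13, adjusted p = 1.2e-07), the proteoglycan gene Sdc3 from 386 ± 29.3 to 102 ± 13 CPM (log2 change -1.92, SE 0.12, adjusted p = 2.2e-07) and the glycosyltransferase gene Mgat5b from 126 ± 6.14 to 32.7 ± 4.47 CPM (log2 change -1.95, SE 0.14, adjusted p = 6.7e-07). The groups did not overlap for any of these genes.

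Trp53 RNA itself stood at 137, 136 and 138 CPM in WT and at 166, 177 and 154 CPM in cHyper. Every cHyper library was above every WT library, but the difference missed the threshold (log2 change 0.27, SE 0.08, adjusted p = 0.0553). In mTEChi Trp53 rose by 0.41 (adjusted p = 0.020). The mTEClo difference passed with the filter at a mean of 1 CPM, with DESeq2, with limma-voom and with the replicate block (adjusted p of 0.0275). Mdm2, which encodes the ligase that sends p53 to degradation and is itself a p53 target, stood at 70, 68.3 and 69 CPM in WT and at 78.2, 66.8 and 76.1 CPM in cHyper (log2 change 0.09, SE 0.09, adjusted p = 0.576), and its groups overlapped. Mdm4, its partner in holding p53 down, stood at 273, 243 and 229 CPM in WT and at 178, 161 and 174 CPM in cHyper, lower in all 3 cHyper libraries (log2 change -0.54, SE 0.09, adjusted p = 0.00207). Of the 13 measured members of the list of Trp53, its relatives and its feedback genes, Zmat3 and Ccng1 rose, Mdm4 fell and 10 did not pass. The called share was 23.1%, beside 9.16% of all genes.

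The Trp53 target genes did not move as one. Of 93 genes on the Trp53 lists, 24 rose (25.8%), 13 fell (14%) and 56 did not pass, against 4.53% and 4.64% of all genes, and their median log2 change was 0.11. For 34 of them the cHyper libraries lay above all WT libraries and for 20 below. The split followed the role lists only in part. Of 17 genes of cell death 8 rose and 4 fell (median 0.36), of 12 genes of cell cycle arrest 1 rose and 3 fell (median -0.24), of 19 genes of DNA repair and metabolism 3 rose and 1 fell (median 0.12), and of 32 further targets 10 rose and 4 fell (median 0.23). In the mTEChi libraries the same medians were 0.05, 0.00, 0.08 and 0.26.

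Among genes of cell cycle arrest most of the called members fell. Cdkn1a, which encodes the cell cycle inhibitor p21, stood at 48.7, 66.9 and 54.7 CPM in WT and at 32.1, 28.5 and 31.7 CPM in cHyper (log2 change -0.89, SE 0.12, adjusted p = 0.000328). Btg2, an antiproliferative gene, stood at 230.4, 213 and 190 CPM in WT and at 120.3, 105 and 109 CPM in cHyper (log2 change -0.92, SE 0.14, adjusted p = 0.00062). Klf4, a transcription factor that is also an immediate-early gene, fell from 87.9 ± 4.84 to 49.4 ± 9.4 CPM (log2 change -0.83, SE 0.15, adjusted p = 0.00274). All 3 were lower in every cHyper library. Gtse1, which is a p53 target that in turn restrains p53, moved the other way, from 11.8 ± 4.62 to 26 ± 3.43 CPM (log2 change 1.13, SE 0.20, adjusted p = 0.00251). Gadd45a, a damage-inducible arrest gene, stood at 15.2, 14.4 and 14.4 CPM in WT and at 15.5, 16.2 and 14.8 CPM in cHyper (adjusted p = 0.689).

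Within the Trp53 lists the largest rise was that of a gene of the cell death list. Eda2r (ENSMUSG00000034457, mm10 chromosome X, 97333840 to 97377216), a death receptor-like member of the TNF receptor family, stood at 1.28, 1.78 and 1.27 CPM in WT and at 26.9, 25.4 and 23.7 CPM in cHyper (log2 change 4.11, SE 0.20, adjusted p = 3.2e-08). Apaf1, the scaffold of the apoptosome, stood at 54.8, 52.4 and 45 CPM in WT and at 115, 106 and 99.9 CPM in cHyper (log2 change 1.07, SE 0.10, adjusted p = 1.3e-05). Both were separated from WT in every library. The nuclease gene Aen rose from 26 ± 1.02 to 51.9 ± 3.58 CPM (log2 change 1.0, SE 0.11, adjusted p = 4.4e-05), the BH3-only gene Pmaip1 (Noxa) from 21.6 ± 3.95 to 39.8 ± 2.18 CPM (log2 change 0.87, SE 0.13, adjusted p = 0.000779) and the pore-forming BCL2 relative Bax from 41 ± 10.7 to 74.8 ± 3.48 CPM (log2 change 0.86, SE 0.20, adjusted p = 0.0157). The call of Bax ended without WT mTEClo replicate 3 (adjusted p = 0.0715). Bbc3 (Puma), another BH3-only gene, stood at 12.7, 16.6 and 16.8 CPM in WT and at 18.1, 15.1 and 13 CPM in cHyper, and its groups overlapped (adjusted p = 1.0). The decoy receptor genes Tnfrsf22 and Tnfrsf23, which bind the death ligand Tnfsf10 without passing on a death signal, were lower. Tnfrsf22 stood at 14.8, 15.9 and 15.6 CPM in WT and at 6.26, 5.95 and 6.19 CPM in cHyper (log2 change -1.33, SE 0.15, adjusted p = 4.8e-05). Tnfrsf23 fell from 18.2 ± 1.16 to 7.5 ± 1.35 CPM (log2 change -1.28, SE 0.17, adjusted p = 0.000252). Casp1 and Phlda3 were the other 2 that fell.

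Among repair, metabolic and further targets the called genes mostly rose. Cpt1c, a brain-type carnitine palmitoyltransferase, stood at 12.8, 14.7 and 12.3 CPM in WT and at 48.5, 44.6 and 51 CPM in cHyper (log2 change 1.85, SE 0.12, adjusted p = 2.6e-07). Mgmt, which removes alkyl groups from guanine in DNA, stood at 1.98, 1.9 and 2.25 CPM in WT and at 12.8, 11.1 and 14.2 CPM in cHyper (log2 change 2.64, SE 0.18, adjusted p = 6.2e-07). Polk, a translesion DNA polymerase, rose from 21.8 ± 1.74 to 44.9 ± 3.68 CPM (log2 change 1.04, SE 0.12, adjusted p = 5.4e-05). Zmat3, a splicing regulator and well-known p53 target, stood at 41.1, 40.3 and 37.8 CPM in WT and at 92.8, 103 and 88 CPM in cHyper (log2 change 1.25, SE 0.09, adjusted p = 1.2e-06). Ccng1, a cyclin that feeds back on p53, stood at 160.1, 160.2 and 130.4 CPM in WT and at 265, 273 and 247 CPM in cHyper (log2 change 0.80, SE 0.12, adjusted p = 0.000509). All 5 genes were higher in every cHyper library than in any WT library. Sulf2, an extracellular sulfatase, stood at 67.6, 54.3 and 38.9 CPM in WT and at 259, 273 and 168 CPM in cHyper (log2 change 2.12, SE 0.20, adjusted p = 8.3e-06). The leukotriene receptor gene Ltb4r2 stood at 9.21, 12.3 and 8.3 CPM in WT and at 63.4, 63 and 55.1 CPM in cHyper (log2 change 2.6, SE 0.16, adjusted p = 2.6e-07). Klhl26 rose from 29.5 ± 1.59 to 104 ± 8.6 CPM (log2 change 1.81, SE 0.09, adjusted p = 4.3e-08), Kank3 from 15.6 ± 1.35 to 53.1 ± 10.1 CPM (log2 change 1.77, SE 0.15, adjusted p = 4.9e-06), the dicarbonyl reductase gene Dcxr from 17.8 ± 2.38 to 71 ± 17.6 CPM (log2 change 1.99, SE 0.25, adjusted p = 0.000138), the ribosomal protein-like gene Rps27l from 56.1 ± 6.52 to 123 ± 10.1 CPM (log2 change 1.13, SE 0.17, adjusted p = 0.000514) and Ei24 from 83.8 ± 2.1 to 127 ± 8.86 CPM (log2 change 0.60, SE 0.09, adjusted p = 0.000645).

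**Figure D2:**
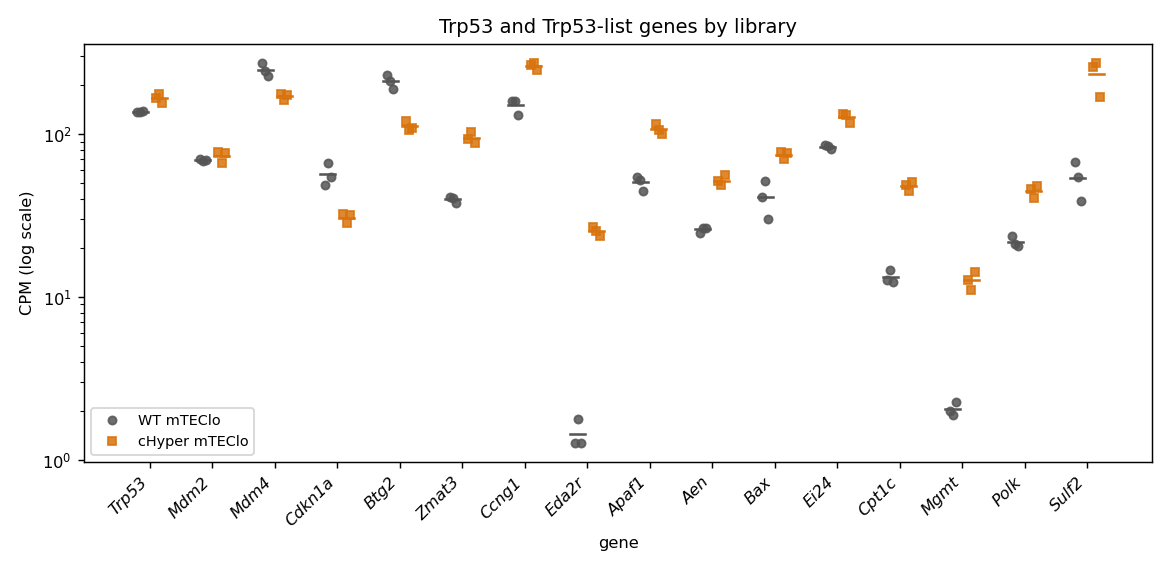
CPM on a log scale (vertical axis) of Trp53 and 15 genes of the Trp53 lists (horizontal axis) in the 3 WT (grey circles) and 3 cHyper (orange squares) mTEClo libraries, with bars at the group means. Cdkn1a, Btg2 and Mdm4 lie lower in cHyper, Mdm2 overlaps, and Eda2r is the gene with the widest gap, from 1.27 to 1.78 CPM in WT to 23.7 to 26.9 in cHyper.

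p53 binds DNA as a tetramer at pairs of 10-base half-sites. In the 250 bases before the RefSeq start sites (GRCm38.p6), a match to the Trp53 half-site motif was found in 6.47% of 14883 tested genes. These were the genes whose RefSeq start site lay within 1000 bases of the start in the deposited table. The match was found in 14 of 70 Trp53-list genes with such a start site and in 4 of the 18 of those that rose. The windows below show that the falling gene Cdkn1a and the rising genes Bax, Ccng1 and Ei24 all carry a match. Each line gives the last 210 bases before the start site, 5′ to 3′ on the strand of the gene, with the matches in capitals.
Cdkn1a: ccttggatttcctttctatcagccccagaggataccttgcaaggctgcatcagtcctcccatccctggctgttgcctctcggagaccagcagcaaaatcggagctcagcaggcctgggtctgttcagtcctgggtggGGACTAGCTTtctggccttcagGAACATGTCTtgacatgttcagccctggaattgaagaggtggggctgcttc
Bax: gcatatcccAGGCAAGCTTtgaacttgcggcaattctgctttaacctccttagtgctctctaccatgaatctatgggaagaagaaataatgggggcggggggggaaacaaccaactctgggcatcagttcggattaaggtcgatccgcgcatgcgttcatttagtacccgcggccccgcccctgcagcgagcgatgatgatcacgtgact
Ccng1: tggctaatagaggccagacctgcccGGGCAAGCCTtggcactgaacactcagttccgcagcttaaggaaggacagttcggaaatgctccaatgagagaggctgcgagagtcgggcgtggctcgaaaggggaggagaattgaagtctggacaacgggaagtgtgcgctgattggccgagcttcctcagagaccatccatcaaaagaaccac
Ei24: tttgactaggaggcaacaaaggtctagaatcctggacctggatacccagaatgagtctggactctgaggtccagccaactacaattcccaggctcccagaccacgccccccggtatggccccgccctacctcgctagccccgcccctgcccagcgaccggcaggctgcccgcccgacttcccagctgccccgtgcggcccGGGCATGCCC
Cdkn1a (chr17:29090769-29090978, + strand) had 2 matches, the first bases of which lie 73 and 51 bases before the start. Bax (chr7:45466899-45467108, - strand) had 1 at 201 bases, Ccng1 (chr11:40755287-40755496, - strand) 1 at 185 bases and Ei24 (chr9:36797335-36797544, - strand) 1 at 10 bases. A match is a description of these letters, and binding was not measured.

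Most measured genes of the interferon response fell. The effector, PYHIN and GTPase lists together had 81 measured members, of which 65 fell (80.2%), 2 rose and 14 did not pass, against 4.64% falling among all genes. Their median log2 change was -1.02, and 40 fell at least 2-fold. For 67 of the 81 all cHyper libraries lay below all WT libraries, against 13% of all genes. In the interferon effector list 37 of 48 fell and 1 rose (median -1.19), in the PYHIN list 10 of 13 fell and 1 rose (median -1.55), and in the GTPase list 18 of 20 fell (median -0.75). These lists were chosen with the fall of interferon genes in these libraries known.

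Upstream of the effectors, called genes went in both directions. Of 16 ligand, receptor and signal transducer genes 3 fell and 1 rose (25% called, beside 9.16% of all genes). Ifnlr1, the receptor chain that is specific to type III interferon, stood at 54.3, 45.6 and 57.8 CPM in WT and at 15.3, 12.8 and 12.8 CPM in cHyper (log2 change -1.94, SE 0.14, adjusted p = 7.0e-07). Stat2, which carries the type I and type III signal, stood at 321, 339 and 282 CPM in WT and at 153, 165 and 138 CPM in cHyper (log2 change -1.05, SE 0.10, adjusted p = 1.3e-05). For both genes every cHyper library was below every WT library. Irf9, a DNA-binding partner of Stat2, stood at 256, 238 and 230.3 CPM in WT and at 194, 195 and 182 CPM in cHyper (log2 change -0.34, SE 0.11, adjusted p = 0.0653), which passed in 9 of the 21 alternatives, the replicate block included (adjusted p = 0.047). Ifngr2, the second chain of the interferon gamma receptor, rose from 132 ± 2.21 to 184 ± 4.24 CPM (log2 change 0.48, SE 0.09, adjusted p = 0.00262).

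Of 9 interferon regulatory factors 2 rose, 2 fell and 5 did not pass (44.4% called, beside 9.16% of all genes). Irf7, which amplifies the type I response, stood at 474, 609.8 and 516 CPM in WT and at 80.5, 112 and 82.7 CPM in cHyper (log2 change -2.54, SE 0.15, adjusted p = 2.2e-07). Irf4 stood at 20.1, 22.7 and 19.5 CPM in WT and at 44.8, 53.5 and 54.5 CPM in cHyper (log2 change 1.29, SE 0.10, adjusted p = 2.0e-06). Irf8 stood at 96.7, 85.3 and 77.7 CPM in WT and at 133, 119.8 and 130.2 CPM in cHyper (log2 change 0.56, SE 0.10, adjusted p = 0.00199). Thus Irf7 was lower and Irf4 and Irf8, which are better known from lymphoid and myeloid cells, were higher in every cHyper library. Irf5 was the other that fell, from 28.7 ± 2.61 to 21.9 ± 2.3 CPM (log2 change -0.39, SE 0.10, adjusted p = 0.0289). Its call was lost in 5 of 21 alternatives (adjusted p up to 0.103), with only the mTEClo libraries, with replicates 1 and 2 only, and on leaving out replicate 3 of WT or replicate 1 or 2 of cHyper mTEClo. Of 15 nucleic acid sensors and adaptors 6 fell and 3 rose (60% called, beside the same 9.16%). The Z-nucleic acid sensor gene Zbp1 fell from 166 ± 28.2 to 71 ± 1.73 CPM (log2 change -1.22, SE 0.13, adjusted p = 2.3e-05), the RNA sensor gene Ifih1 (Mda5) from 139 ± 23.9 to 80.8 ± 3.86 CPM (log2 change -0.78, SE 0.13, adjusted p = 0.00119), its relative Dhx58 from 98.6 ± 13.7 to 42 ± 5.16 CPM (log2 change -1.23, SE 0.13, adjusted p = 2.9e-05) and Adar, which edits double-stranded RNA, from 329 ± 13.2 to 232 ± 8.65 CPM (log2 change -0.50, SE 0.09, adjusted p = 0.00288).

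The antiviral effectors include the oligoadenylate synthetases, which activate RNase L, the Ifit proteins, which bind foreign RNA ends, and the ubiquitin-like Isg15. Isg15 stood at 211, 346 and 238 CPM in WT and at 58, 92.2 and 72.9 CPM in cHyper (log2 change -1.83, SE 0.20, adjusted p = 3.0e-05). Ifit1 stood at 236, 300.2 and 261 CPM in WT and at 93, 105 and 116 CPM in cHyper (log2 change -1.34, SE 0.12, adjusted p = 7.4e-06). Ifit3 stood at 399, 647 and 482 CPM in WT and at 98, 128 and 116 CPM in cHyper (log2 change -2.16, SE 0.18, adjusted p = 4.0e-06). In each of these the highest library was WT replicate 2, and the groups were apart. Oas3 stood at 111, 178 and 127 CPM in WT and at 24.7, 30.1 and 28 CPM in cHyper (log2 change -2.33, SE 0.15, adjusted p = 3.4e-07). Oas2 stood at 52.2, 67.2 and 56.8 CPM in WT and at 5.19, 7.82 and 7.45 CPM in cHyper (log2 change -3.11, SE 0.21, adjusted p = 3.9e-07). Oasl1 fell from 37.7 ± 8.38 to 6.83 ± 0.671 CPM (log2 change -2.46, SE 0.16, adjusted p = 3.3e-07). Rsad2 (viperin), an enzyme that makes a chain-terminating nucleotide, stood at 31, 47.3 and 29.2 CPM in WT and at 8.18, 9.77 and 12.2 CPM in cHyper (log2 change -1.84, SE 0.19, adjusted p = 1.8e-05). Mx1, a dynamin-like GTPase, fell from 94.1 ± 22.6 to 16.8 ± 3.21 CPM (log2 change -2.49, SE 0.17, adjusted p = 6.2e-07), Apol9b from 40.1 ± 4.9 to 6.61 ± 0.83 CPM (log2 change -2.6, SE 0.15, adjusted p = 1.4e-07), and the chemokine gene Cxcl10 from 571 ± 147 to 189 ± 11.4 CPM (log2 change -1.59, SE 0.16, adjusted p = 1.4e-05). Close copies such as Ifit3 and Ifit3b, Apol9a and Apol9b, or Tgtp1 and Tgtp2 can share fragments, so the split between copies is uncertain. Ifi27 was the exception. It stood at 91.3, 81.5 and 77.5 CPM in WT and at 176, 162 and 168 CPM in cHyper, higher in every cHyper library (log2 change 1.01, SE 0.09, adjusted p = 4.7e-06).

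The PYHIN genes encode DNA-binding interferon-inducible proteins and lie together on chromosome 1. Ifi213 stood at 20.5, 23 and 22.3 CPM in WT and at 0.571, 1.2 and 0.692 CPM in cHyper (log2 change -4.72, SE 0.29, adjusted p = 2.2e-07). Ifi208 stood at 3.26, 3.96 and 4.27 CPM in WT and at 0.388, 0.368 and 0.163 CPM in cHyper (log2 change -3.55, SE 0.35, adjusted p = 1.6e-05). Ifi206 fell from 14.3 ± 1.02 to 1.29 ± 0.346 CPM (log2 change -3.48, SE 0.22, adjusted p = 2.2e-07). These 3 were under 2 CPM in every cHyper library. Ifi204 stood at 144, 183 and 139 CPM in WT and at 20.3, 21.7 and 21.1 CPM in cHyper (log2 change -2.88, SE 0.19, adjusted p = 3.2e-07), and Ifi203 fell from 142 ± 11.6 to 46.7 ± 3.78 CPM (log2 change -1.6, SE 0.12, adjusted p = 1.0e-06). Aim2, the inflammasome sensor of the same family and chromosome, stood at 6.26, 5.09 and 5.11 CPM in WT and at 11.3, 9.66 and 12.1 CPM in cHyper and rose in every cHyper library (log2 change 1.0, SE 0.13, adjusted p = 0.000245). PYHIN genes are close copies of each other, so how fragments were shared among them by the authors' counting is uncertain, and values of single members are less certain than the fall of 10 of 13.

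The interferon-inducible GTPases, which attack the vacuoles of intracellular pathogens, fell in 18 of 20 cases. Tgtp2 stood at 344, 363 and 328 CPM in WT and at 169, 170.2 and 168 CPM in cHyper (log2 change -1.03, SE 0.09, adjusted p = 4.0e-06). Its 3 cHyper libraries lay close together and well below WT. Ifi47 stood at 199, 218 and 198 CPM in WT and at 118, 127 and 122 CPM in cHyper (log2 change -0.74, SE 0.09, adjusted p = 0.000129). Igtp fell from 166 ± 18.2 to 101 ± 7.16 CPM (log2 change -0.71, SE 0.10, adjusted p = 0.00026) and Gbp9 from 97.8 ± 12.3 to 46.2 ± 1.69 CPM (log2 change -1.08, SE 0.13, adjusted p = 9.6e-05). The share of MHC class I and peptide loading genes called was near that of all genes (9.52% against 9.16%). Even so, 16 of the 21 had a negative and 5 a positive log2 change (median -0.08). For 7 all cHyper libraries lay below all WT libraries and for none above, against 13% and 12.2% of all genes. Their sum ran from 17543 to 19980 CPM in WT and from 16635 to 17193 in cHyper. Of these 21 genes 2 fell, among them H2-T23, a nonclassical class I gene, from 794 ± 28.4 to 562 ± 29.4 CPM (log2 change -0.50, SE 0.10, adjusted p = 0.00455). B2m, the shared light chain of class I, stood at 4802, 5315 and 5576 CPM in WT and at 4423, 4540 and 4331 CPM in cHyper (adjusted p = 0.234, or 0.0281 by DESeq2). Of 17 MHC class II genes 3 rose (17.6%). H2-Eb2 stood at 106, 104 and 68.9 CPM in WT and at 149, 178 and 138 CPM in cHyper (log2 change 0.74, SE 0.15, adjusted p = 0.00745). Ciita, the master regulator of class II, rose from 267 ± 23.3 to 380 ± 39.5 CPM (log2 change 0.51, SE 0.11, adjusted p = 0.0103), which missed the threshold when replicate 3 of WT mTEClo, or replicate 2 of cHyper mTEClo, was dropped (adjusted p of 0.0559 and 0.0514). Cd74, the class II invariant chain, stood at 6109, 5988 and 6660 CPM in WT and at 7015, 7477 and 7800 CPM in cHyper (adjusted p = 0.335).

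**Figure D3:**
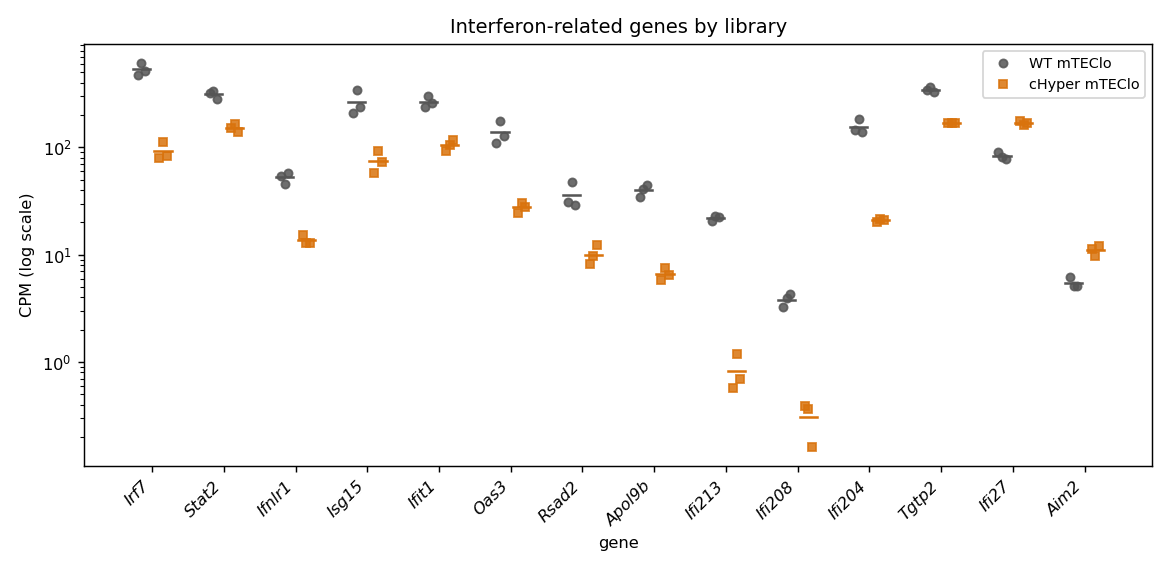
CPM on a log scale (vertical axis) of 14 interferon-related genes (horizontal axis) in the 3 WT (grey circles) and 3 cHyper (orange squares) mTEClo libraries, with bars at the group means. All but Ifi27 and Aim2 lie lower in cHyper. The cHyper libraries of Ifi208 ran from 0.163 to 0.388 CPM and those of Ifi213 from 0.571 to 1.2 CPM.

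The promoters of the interferon-inducible genes were searched for the ISRE core (GAAA, any 2 bases, then GAAA) on both strands in the same windows of 250 bases, overlapping matches counted apart. It was present in 2.7% of all 14883 windows, in 2.92% of the genes that rose and in 6.64% of those that fell. It was present in 34 of the 56 windows of the interferon effector, PYHIN and GTPase lists (60.7%) and in 29 of the 43 of those that fell. Of the 54 falling genes with a match, out of 813, these list members made up 29, so the share of 6.64% leans on the lists. The share outside the lists was not worked out. For genes of these lists, which are defined by their response to interferon, such a match describes the list and not the genotype. The lines below give the last 130 bases before the start site of 8 genes that fell, 5′ to 3′ on the strand of the gene, with the ISRE core, or its reverse complement, in capitals.
Isg15: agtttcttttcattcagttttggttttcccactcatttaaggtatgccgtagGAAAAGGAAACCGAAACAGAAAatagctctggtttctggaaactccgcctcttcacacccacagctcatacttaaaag
Ifit1: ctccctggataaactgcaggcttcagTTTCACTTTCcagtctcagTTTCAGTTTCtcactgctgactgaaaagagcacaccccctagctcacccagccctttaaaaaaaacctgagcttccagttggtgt
Oas3: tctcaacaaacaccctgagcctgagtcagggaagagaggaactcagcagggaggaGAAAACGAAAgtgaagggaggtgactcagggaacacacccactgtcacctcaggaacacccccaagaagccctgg
Rsad2: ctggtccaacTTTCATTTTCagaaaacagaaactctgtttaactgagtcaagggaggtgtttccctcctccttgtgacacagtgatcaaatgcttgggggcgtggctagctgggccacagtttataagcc
Apol9b: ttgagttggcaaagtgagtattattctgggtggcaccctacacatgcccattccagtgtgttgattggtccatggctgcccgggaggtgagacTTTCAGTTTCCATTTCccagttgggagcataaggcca
Ifi213: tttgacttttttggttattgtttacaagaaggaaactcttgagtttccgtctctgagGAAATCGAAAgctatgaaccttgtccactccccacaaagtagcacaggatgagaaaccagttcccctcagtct
Ifi208: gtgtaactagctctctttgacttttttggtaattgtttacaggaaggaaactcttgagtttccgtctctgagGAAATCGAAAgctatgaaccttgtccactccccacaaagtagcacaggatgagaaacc
Tgtp2: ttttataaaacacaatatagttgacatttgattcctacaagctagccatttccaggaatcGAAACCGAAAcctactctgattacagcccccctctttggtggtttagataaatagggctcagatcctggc
In Isg15 (chr4:156200819-156200948, - strand) 3 overlapping matches form 1 run, in Ifit1 (chr19:34640759-34640888, + strand) 2 lie apart, and in Apol9b (chr15:77728942-77729071, + strand) 2 overlap close to the start. Oas3 (chr5:120777660-120777789, - strand), Rsad2 (chr12:26456453-26456582, - strand), Ifi213 (chr1:173599273-173599402, - strand), Ifi208 (chr1:173673535-173673664, + strand) and Tgtp2 (chr11:49064213-49064342, - strand) have 1 each. The windows of Ifi213 and Ifi208 share the sequence around the match, so these promoters are not independent examples.

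Immediate-early genes, which are switched on within minutes by growth factors, stress and cell handling, also held many falls, 24 of 51 measured members against 4.64% of all genes. Of 15 AP-1 subunit genes 7 fell (median -0.39), and of 36 other immediate-early and stress genes 17 fell and 1 rose (median -0.49). Fosb stood at 739, 958 and 683 CPM in WT and at 252, 238 and 254 CPM in cHyper (log2 change -1.68, SE 0.17, adjusted p = 1.4e-05). Fos stood at 1486, 1674 and 1176 CPM in WT and at 518, 581 and 546 CPM in cHyper (log2 change -1.4, SE 0.20, adjusted p = 0.000437). Jun stood at 2159, 2440 and 1845 CPM in WT and at 1091, 968 and 942 CPM in cHyper (log2 change -1.1, SE 0.17, adjusted p = 0.000855). In these 3 genes, too, WT replicate 2 was the highest library and no cHyper library came near the lowest WT library. Atf3, a related stress-induced factor, fell from 254 ± 59.4 to 96.3 ± 5.68 CPM (log2 change -1.4, SE 0.14, adjusted p = 2.1e-05), and Fosl2 from 113 ± 21.2 to 66.7 ± 9.7 CPM (log2 change -0.77, SE 0.15, adjusted p = 0.0045). Nfkbiz, an inducible regulator of NF-kB, stood at 133, 155 and 134 CPM in WT and at 41, 41.1 and 51.5 CPM in cHyper (log2 change -1.66, SE 0.12, adjusted p = 8.2e-07). The MAP kinase phosphatase gene Dusp1 fell from 254 ± 50.3 to 84 ± 7.48 CPM (log2 change -1.6, SE 0.13, adjusted p = 3.5e-06), the orphan receptor gene Nr4a1 from 26.7 ± 0.937 to 10.6 ± 1.87 CPM (log2 change -1.34, SE 0.13, adjusted p = 1.3e-05), Zfp36, which destabilises mRNA, from 781 ± 108 to 356 ± 17.5 CPM (log2 change -1.14, SE 0.12, adjusted p = 2.9e-05), and the kinase gene Sgk1 from 123 ± 0.844 to 68.5 ± 2.28 CPM (log2 change -0.85, SE 0.11, adjusted p = 0.000136). Dusp2 was the member that rose. Of 23 heat shock genes 1 rose and 1 fell, 8.7% against 9.16% of all genes, the latter being Hspb1, from 117 ± 14.8 to 36.7 ± 6.22 CPM (log2 change -1.67, SE 0.14, adjusted p = 3.7e-06).

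Among genes of mTEC function the called share was 5% of the medullary identity list, 28.6% of the list of Aire and its partners and 26.7% of the list of maturation and costimulation, beside 9.16% of all genes. Aire, which drives the expression of tissue-restricted antigens, stood at 11.3, 16.2 and 15.4 CPM in WT and at 38.6, 51.4 and 43.6 CPM in cHyper (log2 change 1.64, SE 0.17, adjusted p = 2.4e-05). All 3 cHyper libraries were above all WT libraries, yet far below the mTEChi libraries, which averaged 1920 CPM in WT. Fezf2, another antigen regulator, stood at 156, 162 and 151 CPM in WT and at 173, 129 and 117 CPM in cHyper (log2 change -0.17, SE 0.14, adjusted p = 0.511), with overlap. Of 21 genes of Aire and its partners 5 rose and 1 fell. One of them, Dnmt3l, stood at 0.331, 0.486 and 0.938 CPM in WT and at 4.32, 3.03 and 1.26 CPM in cHyper (log2 change 2.5, SE 0.53, adjusted p = 0.00787), and its call was lost with limma-voom (adjusted p = 0.136). Ccl22, a chemokine of mature mTEC, stood at 0.756, 4.14 and 2.77 CPM in WT and at 7.36, 16.5 and 11.5 CPM in cHyper (log2 change 2.21, SE 0.41, adjusted p = 0.00315). The costimulatory gene Cd80 went the other way, at 4.65, 9.03 and 7.32 CPM in WT and at 2.79, 4.12 and 3.38 CPM in cHyper (log2 change -1.03, SE 0.21, adjusted p = 0.0055), which was lost with replicates 1 and 2 only (adjusted p = 0.0567). Of 20 genes of medullary identity 1 rose. Of 51 tissue-restricted antigens of several organs 4 rose and 3 fell (13.7%, beside 9.16% of all genes), among the latter the islet peptide gene Iapp, from 15.4 ± 1.01 to 3.85 ± 0.701 CPM (log2 change -1.98, SE 0.19, adjusted p = 1.1e-05).

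Surface and differentiation genes were called in both directions. The share called was 21.1% of the Ly6 list, 16.1% of the cornified envelope list and 18.2% of the basal keratin list, beside 9.16% of all genes. Ly6a, which encodes Sca-1, stood at 498, 544 and 528 CPM in WT and at 262, 304 and 229 CPM in cHyper (log2 change -0.98, SE 0.13, adjusted p = 0.000161). Ly6d fell from 64.4 ± 8.51 to 41.2 ± 8.06 CPM (log2 change -0.65, SE 0.13, adjusted p = 0.00574), and Krtdap, a keratinocyte differentiation gene, stood at 68.4, 79.9 and 68.2 CPM in WT and at 19.5, 17.5 and 24.3 CPM in cHyper (log2 change -1.83, SE 0.20, adjusted p = 3.9e-05). In all 3 the groups were apart. Of 19 genes on the Ly6 list 1 rose and 3 fell, while 11 had a positive and 8 a negative log2 change (median 0.06). Summed, the Ly6 list ran from 2540 to 2702 CPM in WT and from 1739 to 1965 in cHyper, without overlap. Of 31 keratinocyte and cornified envelope genes 3 rose and 2 fell, and of 22 basal keratin, hemidesmosome and laminin genes 2 rose and 2 fell. On the cornified list, where Krtdap belongs, 19 members had a positive and 12 a negative log2 change (median 0.11). The sum over that list, which its abundant members weigh on most, ran from 1750 to 1971 CPM in WT. In cHyper it ran from 2762 to 3398 CPM, without overlap. Kitl, the ligand that supports early thymocytes, stood at 22.4, 19.1 and 15.1 CPM in WT and at 38, 41.4 and 40.4 CPM in cHyper (log2 change 1.07, SE 0.14, adjusted p = 0.00023).

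Genes of tuft mimetic cells, which sense through taste-type signalling and make cysteinyl leukotrienes and interleukin 25, held more falls than rises. Of 27 measured members 13 fell and 2 rose (median -0.72), and 19 of 27 had every cHyper library below every WT library. Over all genes these shares were 4.64% lower and 13% below. Alox5, the lipoxygenase that starts leukotriene synthesis, stood at 92.3, 88.9 and 111 CPM in WT and at 48.9, 29.3 and 48.2 CPM in cHyper (log2 change -1.21, SE 0.20, adjusted p = 0.00167). Gng13, a G-protein subunit of taste signalling, stood at 23.8, 19.3 and 27.1 CPM in WT and at 11.2, 8.83 and 16.5 CPM in cHyper (log2 change -0.95, SE 0.20, adjusted p = 0.00707). Il25 stood at 7.25, 6.48 and 11.3 CPM in WT and at 2.63, 2.14 and 4.48 CPM in cHyper (log2 change -1.45, SE 0.31, adjusted p = 0.00881). In these 3 the groups did not overlap, and cHyper replicate 2 was the lowest library. The count of falling members was 3 without cHyper mTEClo replicate 2, 4 without WT mTEClo replicate 3 and 7 with replicates 1 and 2 only, and 20 with the replicate block. Hpgds, a prostaglandin D synthase gene, rose from 27.8 ± 2.93 to 51.4 ± 5.1 CPM (log2 change 0.89, SE 0.13, adjusted p = 0.000526), as did Ltb4r2 above. Of 26 neuroendocrine genes 4 fell and 1 rose (19.2% called, median -0.47), and 7 were positive and 19 negative. Summed over the neuroendocrine list, levels overlapped, from 1029 to 1166 CPM in WT and from 1003 to 1369 in cHyper. The granule genes Scg2 and Chgb fell from 7.26 ± 2.3 to 2.02 ± 0.649 CPM and from 14.2 ± 7.2 to 2.99 ± 2.07 CPM (adjusted p of 0.000279 and 0.00317), and Pcsk1, a prohormone convertase, from 1.75 ± 0.439 to 0.723 ± 0.22 CPM (log2 change -1.32, SE 0.27, adjusted p = 0.00565).

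Pathways of cell communication held called genes in both directions, at shares of 17.9% to 30.8% beside 9.16% of all genes. Of 39 Wnt genes 8 rose and 4 fell. The receptor gene Fzd10 stood at 23.6, 33.7 and 20.6 CPM in WT and at 83.5, 103 and 74.4 CPM in cHyper (log2 change 1.74, SE 0.17, adjusted p = 1.7e-05). The ligand genes Wnt10b and Wnt6 moved apart, Wnt10b from 8.87 ± 3.5 to 22.1 ± 4.28 CPM (log2 change 1.31, SE 0.22, adjusted p = 0.00174) and Wnt6 from 10.3 ± 3.32 to 3.1 ± 0.658 CPM (log2 change -1.73, SE 0.25, adjusted p = 0.000466). Of 20 Notch genes 3 rose and 3 fell, among them the receptor gene Notch1, which fell from 197 ± 16.5 to 141 ± 6.49 CPM (log2 change -0.48, SE 0.09, adjusted p = 0.00347), and Hes6, which rose from 254 ± 19.1 to 398 ± 41.6 CPM (log2 change 0.65, SE 0.12, adjusted p = 0.00319). Of 28 genes of the TNF superfamily and NF-kB 3 rose and 2 fell. Besides Eda2r, the receptor genes Tnfrsf21 and Tnfrsf19 rose, from 36.9 ± 0.667 to 72.6 ± 3.16 CPM (log2 change 0.98, SE 0.08, adjusted p = 3.7e-06) and from 3.67 ± 1.61 to 12.6 ± 1.61 CPM (log2 change 1.75, SE 0.25, adjusted p = 0.000413). Among 32 genes of the TGF-beta and BMP pathway 5 fell and 1 rose, and Inhbb, an activin subunit, fell from 13.1 ± 1.26 to 5.66 ± 0.356 CPM (log2 change -1.21, SE 0.11, adjusted p = 9.8e-06).

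Proliferation and chromatin lists held few called genes. Of 40 proliferation genes 1 rose, of 43 chromatin remodelling genes 1 rose, and of 34 genes of DNA methylation and Polycomb 1 rose and 1 fell. Each of these shares was under the 9.16% of all genes, and a gene that missed the threshold is not shown to be the same in both genotypes. The proliferation genes leaned upward, 37 positive and 3 negative, with a median log2 change of 0.26 beside 0.02 over all genes. Medians of the same-numbered pairs, on the log2(CPM + 0.5) scale, were 0.51, 0.08 and 0.29. Summed over the list, levels overlapped, from 1021 to 1573 CPM in WT and from 1277 to 1733 in cHyper.

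**Figure D4:**
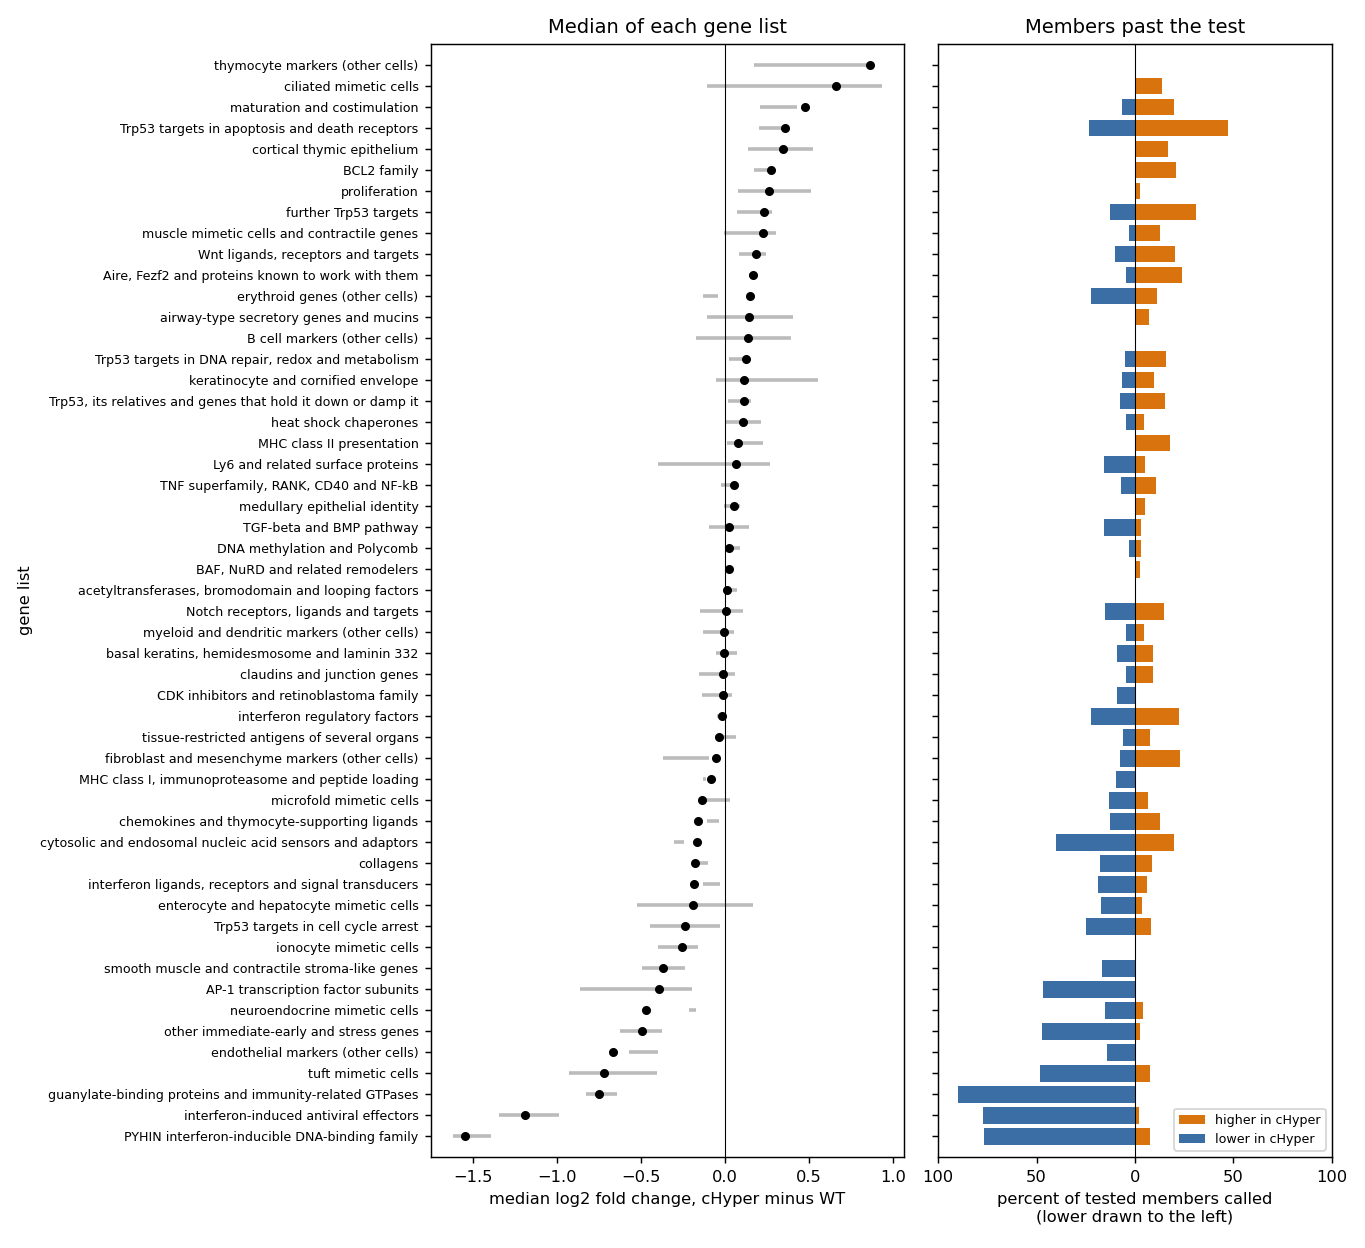
Median log2 fold change of each gene list (left, black dots from the fit; grey bars span the medians of the 3 same-numbered pairs of libraries on the log2(CPM + 0.5) scale, which pulls low genes toward 0) and percent of tested members called higher (orange, to the right) or lower (blue, to the left) in cHyper (right). The interferon effector, PYHIN and GTPase lists have the lowest medians and the largest shares of falling members, and the cell death list of Trp53 the largest share of rising members.

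Whether the genotype difference was of the same size in mTEChi was tested gene by gene. In mTEChi 572 genes were called (1.98%), and the difference between the 2 effects itself was called for 595 genes (2.06%), 506 of which were also called in mTEClo. Of the 1310 genes higher in cHyper mTEClo, 212 were also called higher in mTEChi (16.2% of the mTEClo genes and 47.0% of the 451 mTEChi genes) and 3 lower. Of the 1341 genes lower in mTEClo, 60 were also called lower in mTEChi (4.47% of the mTEClo genes and 49.6% of the 121 mTEChi genes) and 1 higher. For the interferon effector, PYHIN and GTPase lists the median log2 change was -1.02 in mTEClo and -0.28 in mTEChi, where 3 of 81 fell, and the difference of effects was called for 41 of the 81. For the AP-1 and immediate-early lists the medians were -0.46 and -0.07, with 9 of 51 differences called. For the Trp53 lists they were 0.11 and 0.13, with 7 of 93.

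Single genes show how the effects part. Irf7 changed by -2.54 in mTEClo and -0.60 in mTEChi (difference 1.94, adjusted p = 0.000392). Eda2r changed by 4.11 and -0.06 (difference -4.17, adjusted p = 2.4e-06), from 8.14 ± 1.87 to 7.84 ± 0.421 CPM in mTEChi. Cpz rose by 1.65 in mTEChi, from 6.69 ± 0.191 to 21 ± 2.11 CPM, and its effect differed from that in mTEClo (adjusted p = 1.4e-08). The targets Ltb4r2 and Kank3 had the larger change in mTEChi, though not under every alternative. Ltb4r2 rose by 2.6 in mTEClo and 3.73 in mTEChi (difference 1.13, adjusted p = 0.0284), and Kank3 by 1.77 and 2.86 (difference 1.09, adjusted p = 0.0176). The difference for Ltb4r2 lost its call in 7 of 20 alternatives (adjusted p up to 0.098), namely limma-voom, replicates 1 and 2 only, and without replicate 2 or 3 of cHyper mTEClo, replicate 3 of WT mTEChi, or replicate 2 or 3 of cHyper mTEChi. That for Kank3 lost it in 3 (adjusted p up to 0.059), without replicate 2 of WT mTEChi or replicate 1 or 2 of cHyper mTEChi. Cdkn1a changed by -0.89 and -0.73, a difference of 0.15 that did not pass (adjusted p = 0.772). All p-values here are from edgeR's quasi-likelihood test with Benjamini-Hochberg adjustment.

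**Figure D5:**
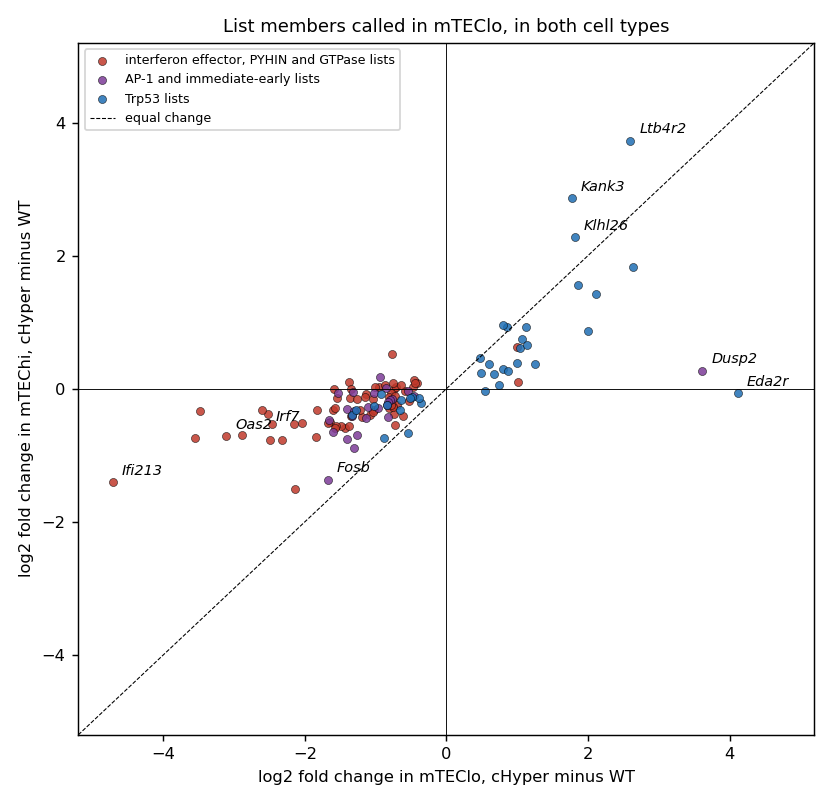
Log2 fold change in mTEChi (vertical axis) against that in mTEClo (horizontal axis) for the members of the interferon (red), AP-1 and immediate-early (purple) and Trp53 (blue) lists that were called in mTEClo, 1 point per gene, with the dashed line of equal change. Most red and purple points lie near the horizontal axis and above the dashed line, so nearer 0 in mTEChi, while Ltb4r2, Kank3 and Klhl26 rose more in mTEChi than in mTEClo by the fitted values.

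The breadth of expression did not differ beyond the spread between libraries. Thinned to a common depth just under that of the shallowest library, WT mTEClo showed 28708 ± 455 genes and cHyper mTEClo 28677 ± 467 (SD, n = 3; exact permutation test, two-sided, p = 0.7, where 0.1 is the smallest that 3 against 3 can give). The 100 most abundant genes held 17.5% ± 0.879 of the fragments in WT and 17.0% ± 0.733 in cHyper (exact permutation p = 0.5). The coefficient of biological variation among the 3 libraries was 17.1% in WT and 17.4% in cHyper.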

How the data were processed

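RNA of sorted mTEC was made into stranded, paired-end mRNA libraries, per the labels. The authors deposited 1 table with fragment counts, TPM and gene lengths per gene (other unit: kilobases, from the deposited length column) for 12 libraries, and had combined the runs of replicates 1 and 2. The submitters' processing notes name TopHat2 2.1.1, SAMtools 1.9, Subread 2.0.1 and mm10. Strand setting and annotation release were not given in the sources used. The deposited counts were tested with edgeR 4.0.16 (R 4.3.3; TMM scaling, filterByExpr, quasi-likelihood F test, 12 libraries in 4 groups), which kept 28932 of 51810 genes. The authors' TPM were used only for levels between genes, and 6 mTEChi TPM columns were not used. The standard error is the log2 change over the root of F. Alternatives were DESeq2 1.42.0, limma 3.58.1, other scalings and filters, a replicate block and leaving out each library. Same-numbered WT and cHyper mTEClo libraries deviated together (r = 0.256, 0.175 and 0.267 over all genes, 0.223, 0.140 and 0.179 over autosomal genes). What the numbers share is not stated, so the main test took no pairs, and the replicate block was run as an alternative. The scripts were tested on simulated data.

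Members and lists were chosen with earlier results of these data known. Of the 1123 list genes 4 were not matched. Genes named in the text come from a rule: Trp53, Cdkn1a, Mdm2, Aire and Fezf2, the 12 largest rises and falls among called, non-overlapping genes averaging 1 CPM or more and again 50 CPM or more, the 8 smallest p each way (predicted genes left out of these), and the 6 smallest p in each list. Not all of them are described, and some are not reported here. Ei24, Ifit1, Rsad2, Ifi27, Krt5, Ccl21a, Bbc3 and Gadd45a fell outside it and were chosen after their values were seen. Casp1 and Phlda3, named only as falling list members, and Xist and Ddx3y, given to describe the libraries, also lay outside it.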

Additional observations from a re-analysis of the deposited data

Results flagged for a closer look

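The genes below were picked out because the genotype difference itself differed between mTEChi and mTEClo (edgeR interaction contrast, adjusted p under 0.05). Each value is the log2 change in mTEChi minus that in mTEClo, so that a positive value for a gene that fell in mTEClo, or a negative one for a gene that rose there, means a more negative or more positive change in mTEClo. Both comparisons use separate WT libraries. The value of Cpz rests on 4 WT mTEClo fragments and depends on how such low counts are fitted.

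Among genes that rose in mTEClo, the values were Cpz -8.36, Eda2r -4.17, Tmem132b -3.72, Dusp2 -3.34, Palm3 -3.25, Pdyn -3.1, Itm2a -2.83, Dnmt3l -2.69, Kcna2 -2.4 and Col3a1 -1.94. Further values were Rai2 -1.89, Aire -1.87, Gipc2 -1.49, Rgs14 -1.29, Wnt10b -1.26, H2-Eb2 -1.02, Tnfrsf21 -0.94, Ifi27 -0.91, Zmat3 -0.89 and Vcan -0.87. Further values were Kitl -0.86 and Irf4 -0.82. For Kank3 1.09 and Ltb4r2 1.13 the rise was larger in mTEChi.

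Among genes that fell in mTEClo, the values were Ms4a10 3.7, C1ql2 3.56, Ms4a4d 3.5, Ifi213 3.31, Ifi206 3.14, Ifi208 2.82, Krt15 2.81, Oas2 2.39, Apol9b 2.28 and Ifi204 2.2. Next in size came Sncg 2.07, Irf7 1.94, Wnt6 1.93, Oasl1 1.93, Krtdap 1.91, Matn1 1.9, Spock2 1.9, Col9a3 1.79, Mx1 1.72 and Ifit3 1.63. Next in size came Cxcl10 1.59, Pcsk1 1.58, Oas3 1.56, Hspb1 1.53, Isg15 1.52, Scg2 1.48, Mgat5b 1.46, Sdc3 1.46, Iapp 1.43 and Anxa8 1.42. Next in size came Ly6a 1.42, Shisa4 1.39, Ifit1 1.34, Alox5 1.32, Ifi203 1.28, Crp 1.24, Nfkbiz 1.2, Zbp1 1.18, Ifnlr1 1.17 and Rsad2 1.12. Next in size came Atf3 1.1, Ly6d 1.01, Dusp1 0.94, Tnfrsf22 0.94, Nr4a1 0.93, Sgk1 0.86, Inhbb 0.84, Btg2 0.84, Stat2 0.83 and Igtp 0.74. Next in size came Ifi47 0.73, Zfp36 0.70, Tgtp2 0.69 and Adar 0.56. Among genes not called in mTEClo, the values were Krt5 1.15 and Ccl21a 1.22.

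Of these 80 differences 54 passed in every alternative that was run for them, at most 20 a gene, and 26 lost their call in 1 or more. By number of alternatives in which the call was lost, these were Adar in 13, Scg2, Tnfrsf22 and Zfp36 in 12, Rai2, Wnt10b and Kitl in 11, Ccl21a and Btg2 in 10, Dnmt3l and Pcsk1 in 9, Alox5 and Rsad2 in 8. Fewer losses were seen for Krt5 and Ltb4r2 in 7, H2-Eb2 in 6, Kank3 in 3, Col9a3 in 2, Ms4a4d, Ifi208, Ifit3, Isg15, Ifnlr1, Dusp1, Vcan and Ifi47 in 1. The highest adjusted p among all of these was 0.298.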

How the results depend on the processing

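Across 21 alternatives no named gene that was called changed direction, while Bbc3, which was not called, ranged from -0.14 to 0.16 on the log2 scale. The counts of falling interferon effectors (33 to 41), PYHIN genes (9 to 10) and GTPases (16 to 19), of falling AP-1 genes (5 to 8) and of rising (19 to 26) and falling (9 to 19) Trp53-list genes stayed within 1.5 times of the main counts. Genes higher in cHyper numbered 1310 in the main analysis, 2031 with the replicate block, 816 with only the mTEClo libraries in the fit, and 801 to 1204 with 1 library left out, 801 being without WT mTEClo replicate 3. Genes lower numbered 1341, 2016 by DESeq2, and 861 to 1358 with 1 library left out, 861 being without cHyper mTEClo replicate 2. Falling tuft genes numbered 13, 20 with the replicate block, 7 with replicates 1 and 2 only, and 3 to 14 with 1 library left out. Rising immediate-early genes numbered 1, and 2 with no filter, by DESeq2 and without cHyper mTEClo replicate 3 (1 to 2 with 1 library left out). Genes whose effect differed between mTEChi and mTEClo numbered 595, 1103 with no filter, 1425 by DESeq2, 1186 with the replicate block, 282 with replicates 1 and 2 only, and 354 to 629 with 1 library left out. The lowest of these, 354, came without WT or cHyper mTEChi replicate 2. The causes of these shifts were not tested. With 3 libraries a group an exact test of a single value cannot go below 0.1, and replicate 3 is at once the shallower, single-run and female library, which cannot be told apart.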

Other observations

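Genes of intestinal and liver-type mimetic cells included falls of the brush border. Of 29 members 5 fell and 1 rose (20.7% called, beside 9.16% of all genes). The list did not fall as a whole, with 12 members positive and 17 negative (median -0.19). Medians of the same-numbered pairs, on the log2(CPM + 0.5) scale, were -0.05, -0.52 and 0.17. Its sums overlapped, from 275 to 295 CPM in WT and from 185 to 285 in cHyper. The brush border genes Vil1 (villin), Cdhr2 and Cdhr5 fell, Vil1 from 11.4 ± 3.15 to 3.51 ± 1.03 CPM (log2 change -1.69, SE 0.24, adjusted p = 0.000376), Cdhr2 from 19.2 ± 7.73 to 4.77 ± 2.56 CPM (log2 change -2.03, SE 0.35, adjusted p = 0.0020) and Cdhr5 from 13.6 ± 4.29 to 5.51 ± 1.84 CPM (log2 change -1.31, SE 0.24, adjusted p = 0.00317). In each of these 3 genes WT replicate 3 was the highest library. Crp, the liver acute-phase protein gene, fell from 133 ± 20.8 to 66.1 ± 5.01 CPM (log2 change -1.01, SE 0.12, adjusted p = 0.000111). Of 32 muscle genes 4 rose and 1 fell (15.6%), with the sarcomere gene Ttn rising from 36.8 ± 3.67 to 78 ± 12.7 CPM (log2 change 1.08, SE 0.20, adjusted p = 0.00307), and of 29 airway-type secretory genes 2 rose (6.9%, under the share of all genes), among them Bpifa1, from 17.1 ± 2.39 to 70.9 ± 24.1 CPM (log2 change 2.05, SE 0.20, adjusted p = 1.4e-05).

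Matrix and stromal genes moved both ways. Of 34 collagen genes 6 fell and 3 rose (26.5% called, beside 9.16% of all genes). Col9a3 fell from 7.57 ± 1.91 to 1.85 ± 0.355 CPM (log2 change -2.04, SE 0.25, adjusted p = 0.000104) and the basement membrane gene Col4a4 from 12.6 ± 2.99 to 3.8 ± 1.05 CPM (log2 change -1.72, SE 0.25, adjusted p = 0.00056), whereas Col16a1 rose from 87 ± 8.33 to 189 ± 59 CPM (log2 change 1.12, SE 0.17, adjusted p = 0.000775) and Col3a1 from 24 ± 2.94 to 68.4 ± 28.7 CPM (log2 change 1.51, SE 0.23, adjusted p = 0.000701). Among the 13 fibroblast markers 3 rose and 1 fell (30.8%). The matrix gene Dpt rose from 1.7 ± 0.439 to 10.1 ± 4.31 CPM (log2 change 2.55, SE 0.39, adjusted p = 0.000769), and Pdgfra, a growth factor receptor gene of mesenchyme, fell from 2.73 ± 0.0941 to 0.884 ± 0.376 CPM (log2 change -1.61, SE 0.28, adjusted p = 0.00228). Col3a1 and Dpt are fibroblast genes too, and the summed fibroblast markers overlapped between the genotypes. The erythroid gene Hbb-bs, whose fragments can be shared with its near-identical copies, fell from 11.8 ± 2.39 to 3.82 ± 1.93 CPM (log2 change -1.6, SE 0.31, adjusted p = 0.00483).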
